A study of Mus musculus with 6 samples.

Results

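Respiratory complexes II to V and cytochrome c, which carries electrons between complexes III and IV, are described here by the RNA of 39 listed nuclear subunit genes in AML-12 mouse hepatocytes with and without a hairpin against manganese superoxide dismutase (MnSOD). A member was a probe set whose only annotated gene symbol is on the list, and the probe set with the highest mean stood for a gene with more than 1. Of the 39 genes, 38 were measured among 19938 genes with 1 symbol, namely 4 of complex II, 9 of complex III, 9 of 10 of complex IV, 15 of complex V and Cycs. Cox7c shares all 3 of its probe sets with another symbol, so it has no value here. The member Atp5f1 is called Atp5pb in the platform's annotation and was matched through RefSeq.

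AML-12 is a hepatocyte line derived from mice that carry a transforming growth factor alpha transgene. The siMnSOD group, called the knockdown below, carried a 9-loop hairpin with 20 nucleotides of MnSOD sequence, and the siScramble group, the control, carried the same hairpin design with a scrambled 20-nucleotide sequence that matches no gene. Both came from retroviral pSUPER.retro.puro constructs packaged in HEK 293T cells, a human kidney line, followed by 2 weeks of puromycin selection, and the sources do not say whether each line was 1 clone. Each group has 3 arrays (replicates 1 to 3), titled as biological replicates and taken from different frozen batches. Separate transductions are not stated, so each p-value covers only how these arrays vary.

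Mitochondrial respiration passes electrons from succinate (complex II) and from NADH (complex I) through ubiquinone to complex III, on to cytochrome c and then to complex IV, which reduces oxygen to water. Complexes III and IV pump protons across the inner membrane, complex II does not, and complex V, the ATP synthase, uses the proton gradient to make ATP. MnSOD removes superoxide from the mitochondrial matrix, and complexes I and III are known as main sites where the chain releases superoxide.

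The transcripts of complexes II to V had higher values on the knockdown arrays for nearly every gene, by less than 2-fold, and few single genes passed the test. Of 38 members 37 had a positive log2 fold change (knockdown minus control, on the scale of log2 intensity), with a median of 0.37, or 1.29-fold. In bulk RNA, more cells with a transcript and more of it per cell cannot be told apart. Over all 19938 genes 52.3% were positive with a median of 0.01. The members ran from −0.27 for Uqcrq to 0.76 for Atp5j, and none reached 2-fold. Uqcrc1 of complex III, Cox7a2 of complex IV and Atp5d of complex V rose at an adjusted p under 0.05 (limma, Benjamini-Hochberg over all 21559 tested rows), and no member fell. The 3 calls are 7.89% of the members, against 2.17% of all genes called higher and 1.58% called lower. Among the 10504 genes with a mean log2 intensity of 5 or more, fitted alone, 5.47% were called higher, again with 3 members, so the number of calls lies near that background. At an unadjusted p under 0.05 in limma there were 14 of 38 members, all higher. Beside them, 1717 of all 19938 genes and 1657 of the 10504 genes with a mean log2 of 5 or more were higher at that level. Over all genes 432 were called higher and 316 lower, and 365 and 140 when arrays were centred on their medians.

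**Figure D1:**
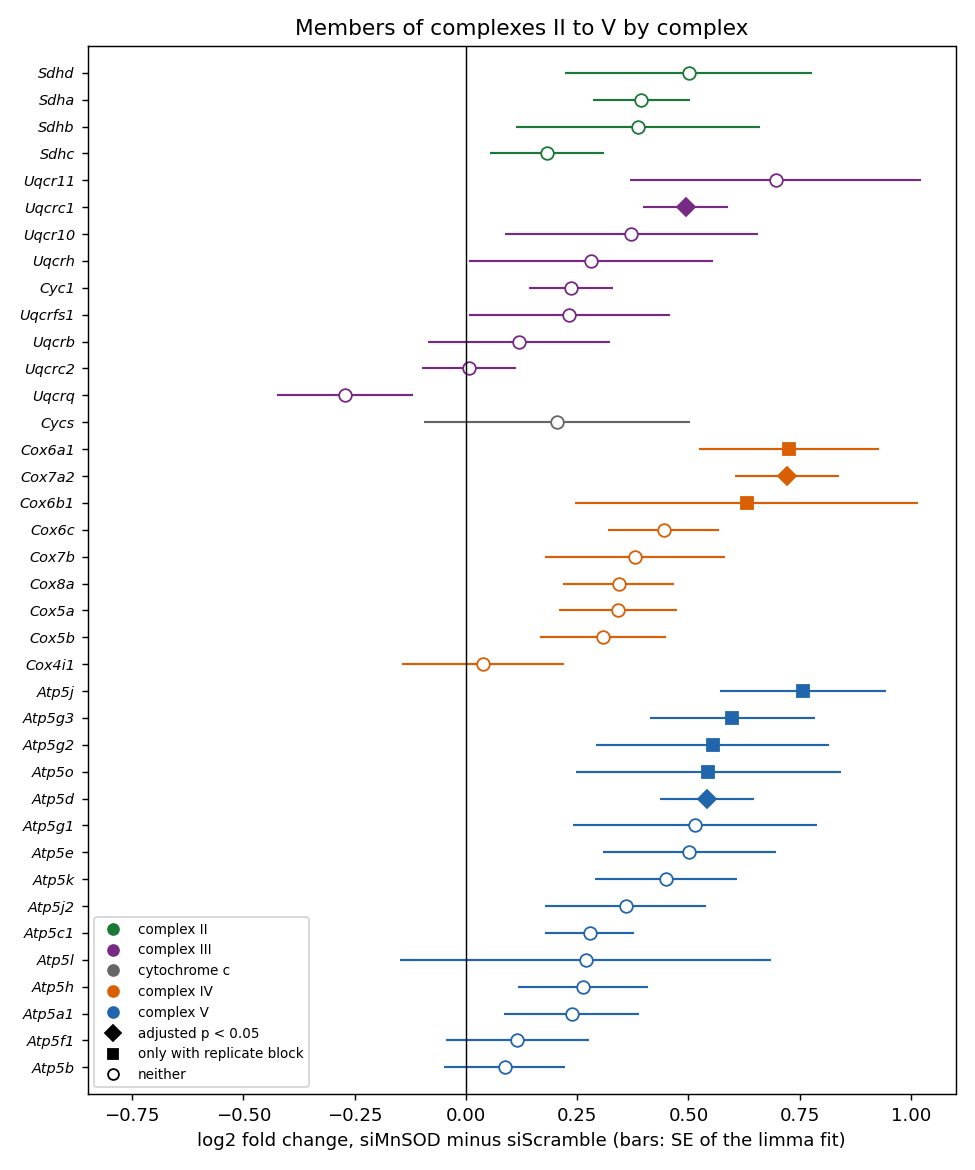
Log2 fold change (x axis, siMnSOD minus siScramble, no unit) of the 38 measured members, sorted by complex, with the standard error of the limma fit as bars. Diamonds mark the 3 members called in the fit without a block, squares the 6 called only with the replicate number as a block. Only Uqcrq lies left of 0.

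Sod2, the targeted gene, was lower on every knockdown array (98.8, 121 and 52.3 intensity units on replicates 1, 2 and 3) than on any control array (248, 254 and 293). It fell by 1.63 on the log2 scale (SE 0.30, adjusted p = 0.037 in limma). The adjusted p went above 0.05 when replicate 1 or replicate 2 of either group was dropped, up to 0.13, and was 0.069 with median centring. Median intensities over all probe sets were 26.8 to 31.0 on the knockdown and 28.1 to 33.6 on the control arrays. Replicate 3 stood apart in both groups. Over the tested rows, replicates 1 and 2 correlated at r = 0.996 in the knockdown and 0.9973 in the control, and with replicate 3 of their own group at 0.9782 to 0.9891. The mean levels of 1015 olfactory receptor genes served as a background guide, chosen after seeing the data. Their 95th percentile was 4.28 on the log2 scale (19.4 intensity units), and all 38 members exceeded it on every array. Of 8 hepatocyte markers, Alb, Ttr and Serpina1a had group means under that guide in both groups. The value for Serpina1a is that of 1 probe set matched to Serpina1d, and 2 probe sets with several symbols were left out. Apoa1 lay little above the guide, with a mean of 4.73 in each group and a log2 fold change of −0.004. Trf, Krt8 and Krt18 were bright, and Hnf4a rose (1.09, adjusted p = 0.013 in limma, up to 0.080 and not called without knockdown replicate 1, knockdown replicate 2 or control replicate 2). The markers summed to 14757 to 16825 units on the knockdown arrays and to 10506 to 14090.4 on the control arrays. Of 4 biliary markers Sox9 fell (log2 fold change −0.86, adjusted p = 0.027 in limma), a call that ended when replicate 1 or 2 of either group was dropped (up to 0.15). Krt19 (0.70, adjusted p = 0.19 in limma) and Krt7 (1.15, adjusted p = 0.38) did not pass the test, though their knockdown and control arrays did not overlap and the knockdown was the higher. Epcam was under the guide, and the 4 summed to 3894 to 4180.4 in the knockdown and 1904 to 3292 in the control. Under the guide in both groups were 3 of 5 macrophage and leukocyte markers (Ptprc, Adgre1 and Lyz2), 3 of 4 endothelial markers (Pecam1, Cdh5 and Kdr) and 3 of 5 stellate cell and fibroblast markers (Lrat, Reln and Pdgfrb), and none of these 14 was called. The part of these markers in the members' values was not tested.

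The promoters of the 3 called members are shown because they are the regulatory sequence nearest to the genes that passed the test. Each runs from 250 bases before to 50 bases after the RefSeq transcription start (GRCm38.p6, written 5′ to 3′ on the gene's strand). Capitals mark the core of the binding motif of NRF1 (nuclear respiratory factor 1, a transcription factor known to act on many respiratory chain genes), searched as GCGCATGCG on both strands. Its reverse complement is CGCATGCGC, and matches on both strands can overlap. Atp5d has 2 annotated starts, and the upstream one is printed.
Uqcrc1, chr9:108936398-108936697, plus strand: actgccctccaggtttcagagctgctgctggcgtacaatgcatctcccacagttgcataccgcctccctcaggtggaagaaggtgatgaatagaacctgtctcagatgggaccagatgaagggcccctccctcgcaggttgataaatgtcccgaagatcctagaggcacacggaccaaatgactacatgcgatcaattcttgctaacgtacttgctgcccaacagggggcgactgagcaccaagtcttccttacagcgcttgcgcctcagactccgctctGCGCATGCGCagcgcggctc
Cox7a2, chr9:79759804-79760103, minus strand: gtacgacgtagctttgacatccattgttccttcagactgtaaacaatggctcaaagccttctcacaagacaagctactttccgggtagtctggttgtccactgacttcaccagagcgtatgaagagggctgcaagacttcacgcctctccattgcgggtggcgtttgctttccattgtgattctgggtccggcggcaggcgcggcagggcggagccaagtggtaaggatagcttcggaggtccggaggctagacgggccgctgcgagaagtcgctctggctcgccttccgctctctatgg
Atp5d, chr10:80142025-80142324, plus strand: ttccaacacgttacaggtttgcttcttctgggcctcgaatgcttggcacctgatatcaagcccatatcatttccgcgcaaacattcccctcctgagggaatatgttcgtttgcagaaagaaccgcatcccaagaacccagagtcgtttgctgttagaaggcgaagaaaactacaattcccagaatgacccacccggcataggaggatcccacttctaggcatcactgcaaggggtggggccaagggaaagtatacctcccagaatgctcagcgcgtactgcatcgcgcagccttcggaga

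Promoters were found for 30 of the 38 measured members (33 windows, since 3 genes have 2 starts). The NRF1 core stood in 7 of 33 windows (21.2%), against 1.75% of all 32851 RefSeq promoter windows of this length and 2.35% of the 21263 windows of protein-coding genes. Of the called members Uqcrc1 holds it, with its first base at position 31 after the start, and the windows of Cox7a2 and Atp5d do not. The other 6 matches are printed with up to 12 bases on each side.
Cox6a1, chr5:115349099-115349132, minus strand: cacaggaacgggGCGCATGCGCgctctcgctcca
Cycs, chr6:50566610-50566642, minus strand: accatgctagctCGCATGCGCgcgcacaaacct
Uqcr11, chr10:80406806-80406838, minus strand: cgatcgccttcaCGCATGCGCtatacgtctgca
Atp5g2, chr15:102671068-102671101, minus strand: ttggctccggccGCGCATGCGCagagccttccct
Atp5k, chr5:108434428-108434461, minus strand: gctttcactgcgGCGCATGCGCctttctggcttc
Atp5l, chr9:44920963-44920992, minus strand: aaccaataaCGCATGCGCatttcccccact

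The first matching base lies at −162 in Cox6a1, −61 in Cycs, −5 in Uqcr11, −42 in Atp5g2, −50 in Atp5k and −241 in Atp5l, counted from the start. These 7 genes had log2 fold changes from 0.20 (Cycs) to 0.73 (Cox6a1). All 38 members ran from −0.27 to 0.76 with a median of 0.37 and 37 positive values. A link between the core and the fold change was not tested. The core of the ETS factor motif, searched as CCGGAAG on both strands, stood in 12 of 33 member windows (36.4%). It stood in 8.86% of all windows and in 11.6% of those of protein-coding genes. The YY1 core AAGATGGCG stood in 2 member windows (6.06%), those of Atp5j and Atp5j2, in 1.40% of all and in 1.83% of protein-coding windows. These shares describe letters in the windows, and no binding was measured.

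Complex II, succinate dehydrogenase, had 4 positive members of 4 and no call, with a median log2 fold change of 0.39. Sdha, the flavoprotein that oxidizes succinate, read 949.9, 995 and 1002 units on knockdown replicates 1, 2 and 3 and 719, 700.3 and 828 on the controls. All knockdown arrays were above all control arrays, and the log2 fold change was 0.39 (SE 0.11, adjusted p = 0.11 in limma). Sdhb, the iron-sulfur subunit, read 513, 556 and 339.6 against 411, 428 and 246 units. Replicate 3 was the lowest array of each group, so the groups overlapped, although within each replicate number the knockdown was higher, by 0.32, 0.38 and 0.47 on the log2 scale. The membrane anchor subunits Sdhd and Sdhc, which hold the ubiquinone site, had log2 fold changes of 0.50 (95% interval −0.16 to 1.16) and 0.18 (−0.12 to 0.49). Sdhc was the lowest of the complex, and its difference in replicate 3 was −0.09.

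Complex III, which passes electrons from ubiquinol to cytochrome c, had members of both signs. Its 9 members had a median of 0.24, 8 were positive, and 1 rose. Uqcrc1, a core protein on the matrix side, read 1412, 1499 and 1407 units in the knockdown and 1046, 1035 and 985 in the control. The groups did not overlap, with means of 1439 ± 51.9 and 1022 ± 32.4 (SD, n = 3), and it rose by 0.49 (SE 0.10, adjusted p = 0.044 in limma). Its difference was nearly the same in each replicate number, at 0.43, 0.53 and 0.51. The other core protein, Uqcrc2, read 2357, 2358 and 2069.6 against 2266, 2311 and 2164 units, and its log2 fold change of 0.01 had an interval of −0.24 to 0.26, so a rise as large as that of Uqcrc1 lies outside it.

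Cytochrome b, an electron carrier of complex III encoded in mitochondrial DNA, was not analysed here, and the nuclear-encoded carriers Cyc1 and Uqcrfs1 were not called. Cyc1, cytochrome c1, had 0.24 (SE 0.09) with knockdown readings of 1235, 1281 and 1278 units all above the control readings of 1066, 1113 and 1041, and an adjusted p of 0.27 in limma. Uqcrfs1, the Rieske iron-sulfur protein, had 0.23 (SE 0.23), and its groups overlapped. The 5 small accessory subunits ran from −0.27 to 0.70, and the groups overlapped for all of them. Uqcr11 read 380.1, 431 and 185 units in the knockdown and 212, 217 and 155 in the control, with knockdown replicates 1 and 2 far above the rest and knockdown replicate 3 below control replicates 1 and 2. Uqcr10 had 0.37 (SE 0.28), also with knockdown replicate 3 below those controls.

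The remaining accessory subunits of complex III did not keep 1 direction across replicate numbers, or were lower in the knockdown. Uqcrh, the acidic hinge protein next to cytochrome c1, read 1030.4, 1142 and 564 against 682, 643 and 842 units, so the knockdown was higher in replicates 1 and 2 and lower in replicate 3. Uqcrb, which helps to form the ubiquinone site, showed the same pattern with within-replicate differences of 0.50, 0.26 and −0.40. Uqcrq, another small subunit beside it, was the only member lower in every replicate number, with differences of −0.34, −0.33 and −0.13 and with readings of 409, 420.2 and 356 units in the knockdown and 519, 529.9 and 391 in the control. Its log2 fold change was −0.27 (interval −0.63 to 0.09, adjusted p = 0.51 in limma). Cytochrome c itself, Cycs, read 1652, 1711 and 1034 against 1501, 1534 and 830.1 units, with replicate 3 lowest in both groups and a log2 fold change of 0.20 (interval −0.50 to 0.91).

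Complex IV, cytochrome c oxidase, had 9 positive members of 9 with a median of 0.38, and 1 rose. Its catalytic core is encoded in mitochondrial DNA and was not analysed here, so these members are the nuclear-encoded subunits that surround and regulate the core. Cox7a2, the isoform of COX7A found in liver and most other tissues, read 734, 793 and 635 units in the knockdown and 448, 424 and 434 in the control. The means were 721 ± 80.2 and 435 ± 11.7 (SD, n = 3) with a wide gap between the groups, and it rose by 0.72 (SE 0.12, adjusted p = 0.025 in limma), or 1.65-fold. Cox6a1, the COX6A isoform of non-muscle tissues, read 737, 873 and 559 against 489.5, 459 and 353 units. All knockdown arrays were above all control arrays for Cox6a1, with a log2 fold change of 0.73 (SE 0.20, adjusted p = 0.12 in limma).

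Cox6b1, which lies on the intermembrane side, where it helps to join the dimer, read 1942, 1987 and 973 units in the knockdown and 1307, 1261 and 613 in the control. Replicate 3 had the lowest value of each group, so the groups overlapped, but the difference within each replicate number was 0.57, 0.66 and 0.67. The small transmembrane subunits Cox6c, Cox8a and Cox7b had 0.44 (SE 0.13), 0.34 (SE 0.12) and 0.38 (SE 0.20). The first of these, Cox6c, read 2577, 2567 and 2064 against 1676, 1845 and 1753 units without overlap, as did Cox8a. A second, somewhat dimmer Cox6c probe set did overlap, with 0.33 (adjusted p = 0.62 in a limma fit of all probe sets) and −0.01 in replicate 3. Cox7b had a difference of −0.25 in replicate 3. Cox5a and Cox5b, on the matrix side of the complex, had 0.34 (SE 0.13) and 0.31 (SE 0.14). Cox4i1, the subunit that binds ATP as a regulator, read 1528, 1579.5 and 1119 against 1494, 1478 and 1129.7 units, and its log2 fold change of 0.04 had an interval of −0.39 to 0.47.

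Complex V, the ATP synthase, had 15 positive members of 15 and the highest median of the complexes, 0.45, with 1 member called. Of the 5 subunits of the catalytic F1 head and its central stalk, Atp5d (delta) rose. It read 1768, 1908 and 1815 units in the knockdown, a mean of 1830.2 ± 71.6, and 1321, 1301 and 1154 in the control, a mean of 1259 ± 91.0 (SD, n = 3). The groups did not overlap, and the log2 fold change was 0.54 (SE 0.11, adjusted p = 0.044 in limma). The neighbouring stalk subunits Atp5e (epsilon) and Atp5c1 (gamma) had 0.50 (SE 0.19) and 0.28 (SE 0.10), both without overlap of the groups. The alpha and beta subunits, which form the catalytic ring, had smaller differences. Atp5a1 read 3400.2, 3505 and 4324 against 2911, 2913 and 3709 units and Atp5b 4938, 4907 and 5646 against 4501, 4457 and 5694, with log2 fold changes of 0.24 (interval −0.12 to 0.60) and 0.09 (−0.24 to 0.41). For both of these genes replicate 3 was the highest array of each group.

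The c ring of the ATP synthase turns as protons pass, and 3 genes, Atp5g1, Atp5g2 and Atp5g3, encode the same mature c subunit with different import sequences. All 3 had positive values in every replicate number. Atp5g1 read 597, 671 and 438 against 467, 488 and 264 units, with a log2 fold change of 0.52 (SE 0.27). Atp5g2 read 2444, 2551 and 1662 against 1801, 1739.9 and 1044, with 0.55 (SE 0.26). Atp5g3 read 2073, 2102 and 1551 against 1367, 1413 and 1007, with 0.60 (SE 0.18), and was the only one of the 3 without overlap of the groups. In each gene replicate 3 was the lowest array of its group.

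**Figure D2:**
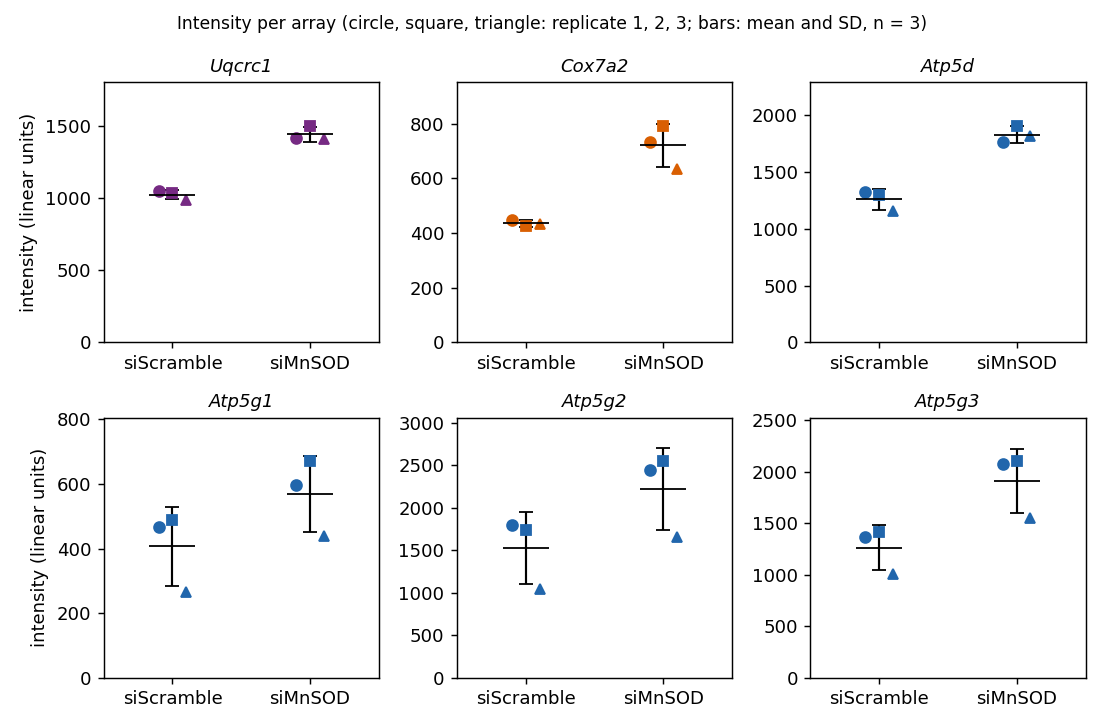
Intensity (y axis, linear units from 0) on each array for the 3 called members and for the 3 genes of the ATP synthase c subunit, with mean and SD of 3 arrays. The groups are apart for Uqcrc1, Cox7a2, Atp5d and Atp5g3, while for Atp5g1 and Atp5g2 knockdown replicate 3 lies below control replicates 1 and 2.

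Of the peripheral stalk, which holds the F1 head still, Atp5j (coupling factor F6) read 1819, 1738 and 1579 units in the knockdown and 1172, 1160.4 and 761 in the control. The groups did not overlap, and its log2 fold change of 0.76 (SE 0.19, adjusted p = 0.085 in limma) was the highest of all members. Control replicate 3 was well under the other controls, and the difference within replicate numbers was 0.63, 0.58 and 1.05. Atp5o (OSCP, which links the stalk to F1) read 631, 689.8 and 381 against 438, 463 and 263 units, with replicate 3 low in both groups and the groups overlapping, while the differences within replicate numbers were 0.53, 0.57 and 0.54. The other stalk subunits Atp5h (d) and Atp5f1 (b) had 0.26 (SE 0.15) and 0.12 (SE 0.16), with negative differences in replicate 3. The small membrane subunits Atp5k (e), Atp5j2 (f) and Atp5l (g), of which e and g help the synthase to dimerize, had 0.45 (SE 0.16), 0.36 (SE 0.18) and 0.27 (SE 0.42). Atp5l had the widest error of all members, with readings of 601, 737 and 284 units in the knockdown and 521, 525 and 263 in the control.

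**Figure D3:**
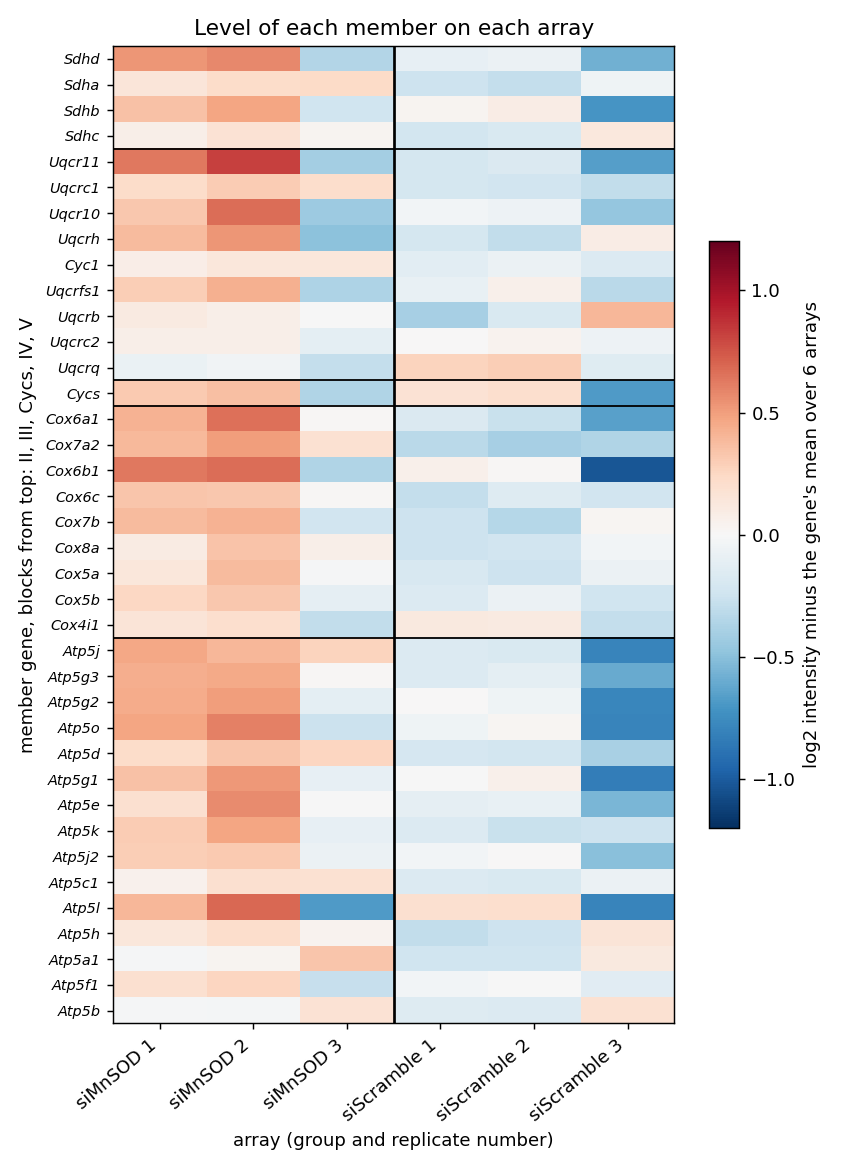
Log2 intensity of each member (rows, by complex and then by fold change) on each array (columns), minus the gene's mean over the 6 arrays. Red is above and blue below that mean. Knockdown replicates 1 and 2 are red for nearly every member, and control replicate 3 is the bluest column in complex V.

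Groups that do not overlap were found for 14 of 38 members (36.8%), all higher in the knockdown. They were 1 of complex II, 2 of complex III, 5 of complex IV and 6 of complex V. Among all genes 11.1% were higher and 9.73% lower without overlap, and among genes with a mean log2 of 5 or more 18.4% were higher. Within replicate numbers 1 and 2 the knockdown was higher for 37 of 38 members each, the exception being Uqcrq, and within number 3 for 27. In all, 27 members (71.1%) were higher in every replicate number, against 22.6% of all genes and 28.9% of genes with a mean log2 of 5 or more. The median differences within replicate numbers 1, 2 and 3 were 0.39, 0.50 and 0.23 over all members. They were 0.36, 0.44 and 0.25 in complex II, 0.38, 0.36 and −0.05 in complex III, 0.57, 0.63 and 0.13 in complex IV and 0.36, 0.49 and 0.44 in complex V. Complex III was thus the only one with a median under 0 in replicate 3, where 5 of its 9 members were lower in the knockdown. No test of the difference between complexes was made.

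**Figure D4:**
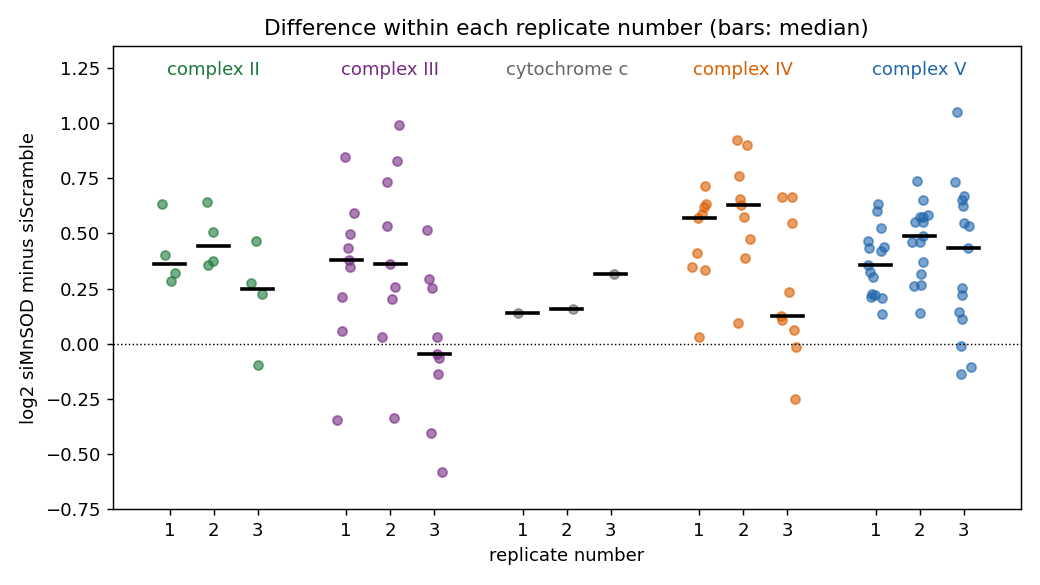
Difference between the knockdown and control array of the same replicate number (y axis, log2) for each member, by complex, with the median as a bar. The bars of replicates 1 and 2 lie above 0 in every complex, and in replicate 3 that of complex III lies at −0.05 and that of complex V at 0.44.

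Replicate 3 was lower than the mean of replicates 1 and 2 in both groups for 26 of 38 members (68.4%), against 26% of all genes and 36.8% of genes with a mean log2 of 5 or more. The members differed much in this. For Cox6b1 replicate 3 lay −1.01 from the mean of the others in the knockdown and −1.07 in the control, and for Atp5l −1.23 and −0.99, on the log2 scale. Replicate 3 was instead higher in both groups for Atp5a1 (0.32 and 0.35), Atp5b, Atp5c1 and Sdha. For Uqcrh it was lower in the knockdown (−0.94) and higher in the control (0.35). Across the 38 members the deviations of the 2 groups correlated at r = 0.628, and across all genes at r = 0.553. Genes of 1 array share its RNA and hybridization, so these are descriptions.

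**Figure D5:**
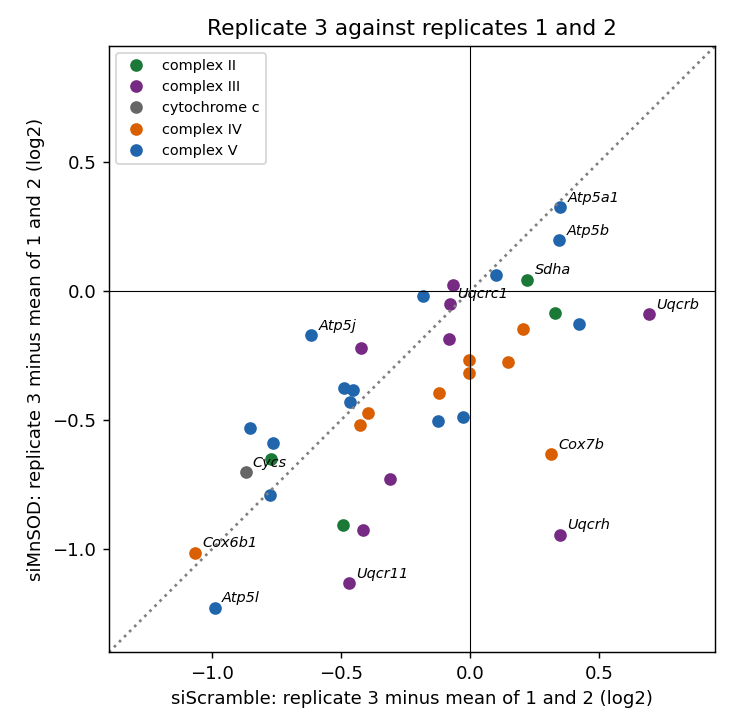
Replicate 3 minus the mean of replicates 1 and 2 (log2) in the control (x axis) and in the knockdown (y axis) for each member, coloured by complex, with equal deviations on the dotted line. Most points lie at the lower left, Atp5a1 and Atp5b in the upper right, and Uqcrh, Cox7b and Uqcrb to the lower right.

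With the replicate number as a block, 9 members (23.7%) were called higher and none lower, against 4.02% of all genes and 7.5% of genes with a mean log2 of 5 or more called higher. They were the 3 above and Cox6a1 (adjusted p = 0.026 in limma with the block), Cox6b1 (0.023), Atp5j (0.035), Atp5o (0.028), Atp5g2 (0.034) and Atp5g3 (0.023). These are 1 of 9 members of complex III, 3 of 9 of complex IV and 5 of 15 of complex V, with none of complex II. For replicates 1 and 2, deviations from group means correlated more between crossed than between same-numbered arrays. Pairing of these arrays, in the block and in the differences within replicate numbers, thus rests on the number in the titles. In a fit of replicates 1 and 2 only, chosen after seeing that replicate 3 stood apart, 27 members (71.1%) were called higher and 1 lower, against 11.8% and 9.69% of all genes. Of genes with a mean log2 of 5 or more, 21.4% were called higher in that fit. The 27 include all 4 members of complex II, 6 of complex III, 8 of complex IV (all but Cox4i1) and 9 of complex V. All 9 of the block are among them, though both fits share arrays. Replicates 1 and 2 correlated at r = 0.996 in the knockdown and 0.9973 in the control over the tested rows. The p-values of the fit without replicate 3 do not cover the spread that replicate 3 adds. The member called lower there was Uqcrq (−0.34, adjusted p = 0.025 in limma). Cycs, Uqcrc2, Cyc1, Cox4i1 and the subunits Atp5a1, Atp5b, Atp5c1, Atp5e, Atp5f1 and Atp5l were called in none of these 3 fits.

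No member kept its call in every fit with 1 array left out. Dropping replicate 1 or replicate 2 of either group left no call. Without knockdown replicate 3 the calls were Cox7a2 and Uqcr11, and Uqcrc1 and Atp5d were not called. Without control replicate 3 they were the 3 genes above, Sdha and Atp5j. The number of calls over all genes also varied widely between these fits, as given below, so member counts of different fits cannot be compared directly. The highest adjusted p over these fits was 0.21 for Uqcrc1, 0.13 for Cox7a2 and 0.21 for Atp5d, and the log2 fold change of these 3 genes stayed within 0.46 to 0.51, 0.65 to 0.81 and 0.48 to 0.58. With arrays centred on their medians no member was called (adjusted p = 0.093 for Uqcrc1, 0.059 for Cox7a2 and 0.099 for Atp5d), while the median over members was 0.45. Called members all have 1 probe set. Of the 11 members with several, 10 had probe sets whose log2 fold changes lay within 0.2 of each other, for example the 6 of Atp5l. Such probe sets can share signal with near-identical copies. The 3 of Cycs ran from −0.31, on a probe set far dimmer than the others, to 0.20.

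Genes that work with these complexes were read from lists of their own. Assembly factors put in place cofactors and subunits. Of these, 32 of 36 listed were measured, 25 were positive, their median was 0.12, and 1 was called, against 2.17% of all genes called higher. It was Cmc2, a small twin CX9C protein linked to complex IV biogenesis, which read 132, 137 and 159.8 units in the knockdown and 47.0, 41.9 and 58.5 in the control and rose by 1.55 (SE 0.15, adjusted p = 0.0062 in limma). Dropping knockdown replicate 2 moved the adjusted p to 0.051, past the threshold. With the replicate block Coa3, which aids the synthesis of the COX1 protein, and Atpaf2, a chaperone of the F1 alpha subunit, were also called (0.68 and 0.45 on the log2 scale). Of 4 further subunits or relatives only Ndufa4, a subunit now counted with complex IV, rose (0.77, SE 0.15, adjusted p = 0.043 in limma), from 1817, 1884 and 1585 units in the control to 3264, 3278 and 2492 in the knockdown. Dropping replicate 1 or replicate 2 of either group ended the call, with an adjusted p up to 0.20, as did median centring (0.094).

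None of the 8 listed isoforms of muscle, testis or lung was called with or without the replicate block, and their median was −0.03. Cox6b2, Cox8b, Cox7b2 and Cyct had group means under the background guide in both groups, and Cox4i2, Cox7a1 and Cox8c had group means above it. For Cox7a1 (4.42 in the knockdown and 4.49 in the control) and Cox8c (4.41 and 4.34) the means were near the guide of 4.28. Cox8c was under it on replicates 1 and 2 of both groups, and Cox7a1 on knockdown replicate 3. The muscle isoform Cox6a2 had a log2 fold change of −0.94 (SE 0.28, adjusted p = 0.14 in limma), opposite in sign to Cox6a1. Its knockdown arrays were all below its control arrays, as for 9.73% of all genes. In replicates 1 and 2 only it was called lower (−1.24, adjusted p = 0.0030 in limma), as were 9.69% of all genes. The most similar set of genes, 34 measured nuclear subunits of complex I, had 30 positive values, a median of 0.27 and 2 calls, Ndufa3 and Ndufa9, both of which ended when replicate 1 or 2 of either group was dropped and, for Ndufa9, also without knockdown replicate 3 (adjusted p up to 0.17). In that set 7 were called higher with the block and 13 in replicates 1 and 2 only. Over all genes 2.17% were called higher without a block, 4.02% with it and 11.8% in replicates 1 and 2 only. Among genes with a mean log2 of 5 or more these shares were 5.47%, 7.5% and 21.4%. The complex I set had 10 genes higher without overlap of the groups, and 22 (64.7%) higher in every replicate number. Over all genes these shares were 11.1% and 22.6%, and among genes with a mean log2 of 5 or more 18.4% and 28.9%. Its median differences within replicate numbers 1, 2 and 3 were 0.24, 0.42 and 0.17. The difference between complexes II to V and complex I was not tested.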

How the data were processed

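Each group had 3 Mouse Gene 1.0 ST arrays (Affymetrix). The authors deposited a normalized intensity per probe set, not log-transformed. The submitters' processing notes name RMA and the design text in the labels names MAS5, with no version, and which was applied is not settled here. The table holds 35557 probe sets, of which 21789 had 1 gene symbol in the platform annotation, 1621 several and 12147 none. Symbols were updated through RefSeq (GRCm38.p6), used for names and promoters. Log2 intensities of 21559 rows (1 per gene, plus rows with several symbols, never named) entered a linear model (limma 3.58.1, R 4.3.3) with group as the only term, no filter on low values and Benjamini-Hochberg adjustment at 0.05. The fit was tested on simulated data, and no result of that test is given here. That test does not show how the fit without a block behaves on these arrays, where replicate 3 stood apart in both groups. An exact permutation test of 3 against 3 arrays cannot go below p = 0.1, so none is given. Precision is limited by having 3 arrays a group.

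The members, gene lists, motifs and alternatives were chosen with earlier results of these data known. By rule the text names called members, those called with the block, the 4 smallest p-values and the lowest fold change per complex, the c subunit genes, Sod2 and called genes of the related lists; the remaining members are named to account for all. Deviations of same-numbered arrays from their group means correlated at 0.30, 0.29 and 0.56 over the tested rows, each above 0.1, the level used to accept pairing by number. Crossed arrays of replicates 1 and 2 pass that level too, so it cannot decide their pairing, which rests on the number in the titles. Crossed arrays correlated more (knockdown 1 with control 2 at 0.47, knockdown 2 with control 1 at 0.41), so the values set replicate 3 apart but do not match 1 to 1 or 2 to 2. What a replicate number stands for is unstated.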

Additional observations from a re-analysis of the deposited data

How the results depend on the processing

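Over all genes 432 were called higher and 316 lower. These counts were 801 and 623 with the replicate block, 2486 and 2188 with array quality weights, 2343 and 1932 in replicates 1 and 2 only, and 52 to 1119 and 25 to 1119 when 1 array was left out. After median centring 140 genes were called lower, beside 365 higher. Among the members 3 were called higher. The count was 9 with the replicate block, 0 after median centring, 1 (Cox7a2) with an intensity trend and robust prior, 25 with array quality weights, 27 in replicates 1 and 2 only and 0 to 5 with 1 array left out. The single lower call under array weights and in replicates 1 and 2 only was Uqcrq. Quantile normalization, an offset of 16, the mean or the dimmest probe set and the filter on dim genes left the count at 3 or 4. The replicate block changed no call among members other than those named.

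Medians kept a positive sign in every setting. The median over members ranged from 0.26 to 0.53 with 1 array left out, that of complex II from 0.29 to 0.49, and that of complex V from 0.31 to 0.61; complex V had 0.53 after median centring. Uqcrc2, Cox4i1, Cycs, Uqcrb and Atp5l changed sign in some setting. Uqcrc2 had −0.10 and Cox4i1 −0.0008 after quantile normalization, Cycs −0.31 with its dimmest probe set, and with 1 array left out the values ran from −0.024 to 0.070 for Uqcrc2, −0.049 to 0.35 for Uqcrb, −0.086 to 0.44 for Cycs, −0.094 to 0.20 for Cox4i1 and −0.061 to 0.68 for Atp5l. The causes were not tested. Replicates 1 and 2 only and the dimmest probe set were chosen after seeing the data.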

Other observations

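The low values of replicate 3 were shared with neighbouring gene groups. Replicate 3 was lower than the mean of replicates 1 and 2 in both groups for 25 of 34 complex I subunit genes (73.5%) and for 20 of 32 assembly factors of complexes II to V (62.5%), beside 26 of 38 members. The median deviation of replicate 3 was −0.39 (knockdown) and −0.15 (control) over the members, and −0.35 and −0.27 over the complex I genes, on the log2 scale. Within the ATP synthase the 3 c subunit genes had medians of −0.53 and −0.76, while the 5 genes of the F1 head and central stalk had 0.06 and 0.10. Those 5 were mixed, with replicate 3 higher in both groups for 3 genes and lower in both for 2, Atp5d and Atp5e. The replicate number and any difference in the frozen batches cannot be told apart.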
